A study of Mus musculus with 12 samples.

Results

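Histone genes were examined in left ventricle RNA of the mouse as the rows of a deposited count table whose symbols begin with Hist1h, Hist2h, Hist3h, Hist4h, H2af or H3f3. The prefixes matched 87 rows, of which 76 had at least 1 count in any of 12 libraries, out of 28070 rows with a count in the whole table. The 76 rows comprised 10 of the Hist2 cluster on chromosome 3, 49 Hist1h rows, 3 Hist3h rows, 1 Hist4h row, 7 H2af rows and 6 H3f3 rows. The libraries fell into 4 groups of 3. Alox5ko_TAC had the Alox5ko genotype and the treatment TAC, Alox5ko_NS the Alox5ko genotype and the treatment NS, WT_TAC wild-type mice with TAC, and WT_NS wild-type mice with NS. TAC is transverse aortic constriction, a band around the aorta that raises the load on the ventricle, and the labels do not spell out NS. The design text of the series speaks of cardiac Alox5 deficiency, whereas the labels give the genotype alone, and no promoter, Cre line, strain or age is given in the sources used here. The labels do not say that the 3 libraries of a group came from separate animals, so p-values refer to the spread among these libraries alone, which may be technical.

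Histones are the proteins around which DNA is wound in nucleosomes, and the linker histone H1 binds where the DNA enters and leaves. Most genes of the H2A, H2B, H3 and H4 types lie in clusters without introns, are read mainly in S phase, and make messenger RNA that ends in a conserved stem-loop in place of a poly(A) tail. Most of the variant genes, here H2af and H3f3, are read outside S phase as well and make polyadenylated messenger RNA. The libraries were made from RNA taken on oligo(dT) beads, so the counts are those of histone RNA that bound to the beads.

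Within the Hist2 cluster the results turned on 4 H2A genes, Hist2h2ab, Hist2h2ac, Hist2h2aa1 and Hist2h2aa2. In GRCm38 (GENCODE M21) Hist2h2ab lies at chr3:96219865-96220308 on the plus strand and Hist2h2ac at chr3:96220361-96220880 on the minus strand, so that the genes point at each other across a gap of 52 bases. Hist2h2aa2 lies at chr3:96239749-96240276 on the minus strand and Hist2h2aa1 at chr3:96245497-96246082 on the plus strand. The first 60 coding bases of the 4 genes, from the GENCODE M21 transcripts, show how alike they are; capitals mark bases that differ from Hist2h2aa2.

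Hist2h2ab: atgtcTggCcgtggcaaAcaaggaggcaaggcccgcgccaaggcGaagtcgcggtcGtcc

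Hist2h2ac: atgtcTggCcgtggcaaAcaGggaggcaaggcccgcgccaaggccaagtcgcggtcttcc

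Hist2h2aa1: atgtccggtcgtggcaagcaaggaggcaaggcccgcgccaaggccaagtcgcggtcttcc

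Hist2h2aa2: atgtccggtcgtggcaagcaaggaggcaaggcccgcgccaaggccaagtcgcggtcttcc

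Over the whole coding sequence Hist2h2aa1 and Hist2h2aa2 were identical at all 390 bases, and the 528 bases of the annotated Hist2h2aa2 transcript stood unbroken inside that of Hist2h2aa1. The coding sequence of Hist2h2ac matched Hist2h2aa2 at 96.4% of aligned bases, with a longest unbroken match of 113 bases. For Hist2h2ab the identity to Hist2h2aa2 was 86.7%, with a longest match of 98 bases. Each window of 150 bases, the read length, was then searched in the transcripts of all 76 rows. All 379 windows of Hist2h2aa2 also occurred in Hist2h2aa1, while none of the 295 windows of Hist2h2ab and none of the 371 windows of Hist2h2ac occurred in another histone row. Reads that lie within the shared stretch therefore carry no base that separates Hist2h2aa1 from Hist2h2aa2, and the counts of these rows are uncertain in how the counting split such reads. Among the 76 rows 48 shared at least 1 window with another of them, 40 of these in Hist1h.

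The stem-loop was searched in the annotated transcripts as GGNNNTNNTNANNNCC on the transcript strand with all 6 base pairs of the stem formed. It was found in 42 of the 63 Hist1h, Hist2h, Hist3h and Hist4h rows and in 1 variant row, H2afx, against 0.372% of the 55341 genes with a transcript. The stretches below are those of the H2A genes that held one, with the stem-loop in capitals.

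Hist2h2ac: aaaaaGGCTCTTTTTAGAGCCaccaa

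Hist2h2aa1: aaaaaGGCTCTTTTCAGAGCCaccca

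Hist2h2aa2: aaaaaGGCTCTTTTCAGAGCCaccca

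The loop of Hist2h2ac differs in 1 letter from that of the other genes. No match lay in the annotated Hist2h2ab transcript, which says only that these letters are not in it. Of the 10 Hist2h rows 6 held a match.

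The stretches just upstream of the RefSeq starts (GRCm38.p6) are shown because 3 of these genes were called together and Hist2h2aa2 was not. Capitals mark CCAAT on either strand (ATTGG on the strand printed) and TATAAA. Hist2h2ab is given as chr3:96219735-96219884 on the plus strand, Hist2h2ac as chr3:96220881-96221030 on the minus strand, Hist2h2aa1 as chr3:96245347-96245496 on the plus strand and Hist2h2aa2 as chr3:96240375-96240524 on the minus strand.

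Hist2h2ab: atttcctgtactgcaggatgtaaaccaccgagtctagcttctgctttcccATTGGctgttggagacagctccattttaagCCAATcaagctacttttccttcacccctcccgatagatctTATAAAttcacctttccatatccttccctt

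Hist2h2ac: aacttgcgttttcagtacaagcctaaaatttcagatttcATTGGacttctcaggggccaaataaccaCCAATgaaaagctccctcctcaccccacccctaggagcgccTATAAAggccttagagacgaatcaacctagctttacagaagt

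Hist2h2aa1: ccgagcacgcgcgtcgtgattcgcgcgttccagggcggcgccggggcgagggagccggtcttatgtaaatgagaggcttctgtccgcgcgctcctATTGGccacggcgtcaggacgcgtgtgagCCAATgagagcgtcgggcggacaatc

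Hist2h2aa2: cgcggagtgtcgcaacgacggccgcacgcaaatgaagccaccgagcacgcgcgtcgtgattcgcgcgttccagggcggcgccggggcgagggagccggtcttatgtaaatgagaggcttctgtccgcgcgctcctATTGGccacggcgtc

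Hist2h2aa1 and Hist2h2aa2 share most of this stretch, shifted against each other because their RefSeq starts lie at different points of the same sequence. In the full windows, from 250 bases before to 50 bases after a start, CCAAT was present on either strand in 48 of 56 windows of Hist genes (85.7%), against 37.4% of 32851 windows of all genes. TATAAA was present in 33 of 56 (58.9%), against 13.6% of all windows, and ATGCAAAT in 13 of 56 (23.2%), against 1.74%. All 8 Hist2h windows held CCAAT, 3 held TATAAA and 2 held ATGCAAAT. Of the 76 rows 63 had a RefSeq window. A match describes the letters and is not shown to be a binding site.

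The level of histone RNA in the ventricle was dominated by few genes. Compared per length, in the RPKM values the authors deposited, Hist2h2aa2 was the highest row, with a mean of 115 ± 14.2 in Alox5ko_TAC, 93.9 ± 4.10 in Alox5ko_NS, 106 ± 9.34 in WT_TAC and 103 ± 10.2 RPKM in WT_NS (SD, n = 3 each). Over all 12 libraries Hist2h2aa2 averaged 105 RPKM, followed by the linker histone gene Hist1h1c with 43.5 RPKM and the H2B gene Hist1h2bc with 31.9 RPKM. The variant genes H3f3b, which codes for histone H3.3, and H2afv, which codes for a variant of the H2A.Z kind, followed with 17.25 and 13.4 RPKM. At the other end, 50 of the 76 rows stayed under 10 counts in every library, 39 of them in Hist1h. The 14 Hist1h rows of the H2A type together had 19, 23 and 19 counts in Alox5ko_TAC, 37, 21 and 18 in Alox5ko_NS, 23, 21 and 23 in WT_TAC and 23, 27 and 17 in WT_NS. Of those in Alox5ko_TAC, 10, 15 and 9 were of Hist1h2al, which is annotated as a processed pseudogene. The only Hist4h row, Hist4h4, had 3 counts in all.

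**Figure D1:**
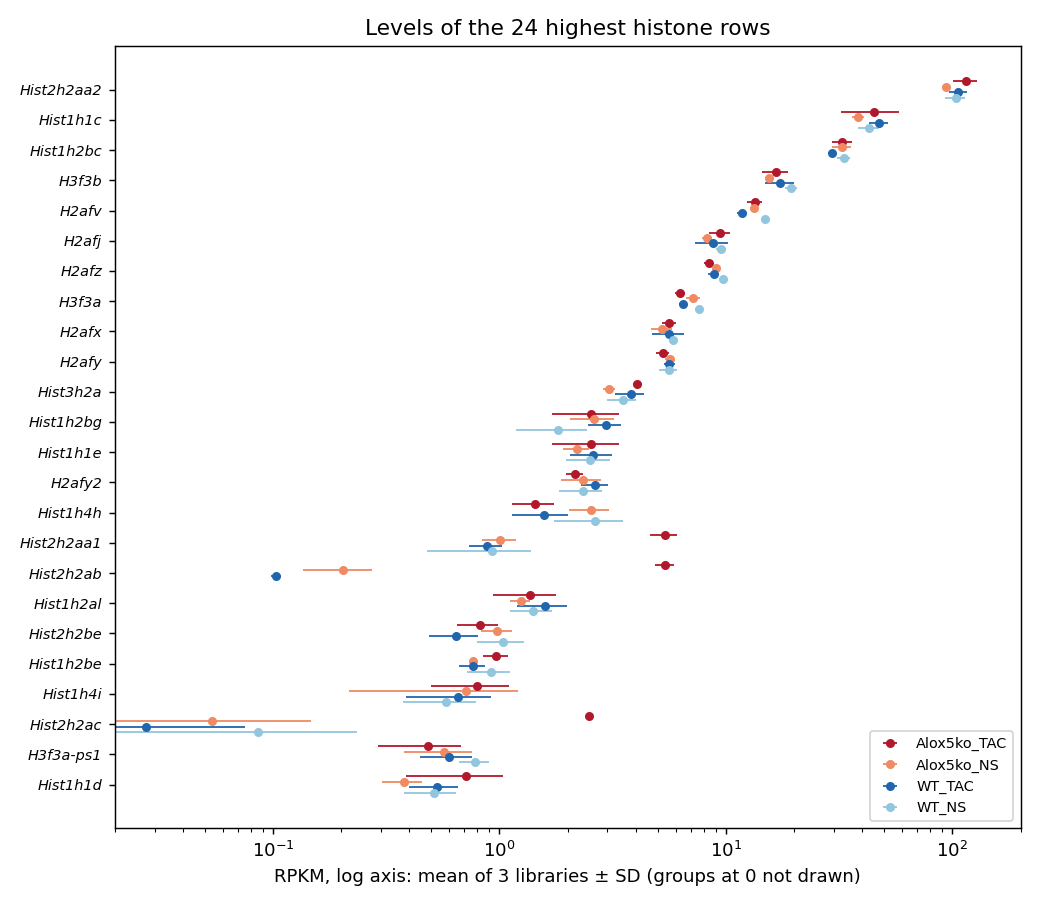
Levels of the 24 histone rows with the highest mean over the 12 libraries, as RPKM on a log axis, with points and bars for the mean and SD of 3 libraries in each group. Hist2h2aa2 stands at the top in every group, and Hist2h2aa1, Hist2h2ab and Hist2h2ac are the rows whose Alox5ko_TAC point lies apart from the other groups.

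Counts were tested with edgeR's quasi-likelihood test over the 15542 genes that passed a filter on low counts, with Benjamini-Hochberg adjustment over all of them, and a row was called at an adjusted p under 0.05. Of the histone rows 23 passed the filter, 5 of them Hist2h, 9 Hist1h, 1 Hist3h, 6 H2af and 2 H3f3. Hist2h2ab and Hist2h2ac passed it through Alox5ko_TAC alone, so a higher level there was a condition of their being tested. The linker histone gene Hist1h1d reached the filter's cut in 2 Alox5ko_TAC libraries, 1 WT_TAC library and 1 WT_NS library. Without the Alox5ko_TAC libraries Hist1h1d would not have passed. Levels below are CPM scaled with TMM factors.

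In ventricles with TAC, 3 H2A genes of the Hist2 cluster were higher in Alox5ko_TAC than in WT_TAC, and no other histone row was called. Hist2h2ab and Hist2h2ac were close to absent outside Alox5ko_TAC, and Hist2h2aa1 was several times its level in the other groups. Hist2h2aa2, with the same coding sequence as Hist2h2aa1 and the highest level of all, was not called. Of all genes tested in this comparison 0.109% were called, and 0.0772% were called higher.

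Hist2h2ab had 56, 47 and 56 counts in the Alox5ko_TAC libraries, against 1, 1 and 1 in WT_TAC. Every Alox5ko_TAC library stood far above every WT_TAC library, at a mean of 2.40 ± 0.266 CPM against 0.0456 ± 0.00236 CPM (SD, n = 3 each). The ratio of the summed counts, 159 against 3 and scaled by library totals, was 52.1, with a 95% exact counting interval of 17.5 to 255. The fitted log2 fold change was 5.56 (SE 0.457, edgeR adjusted p = 5.23e-06), a size that depends on the prior count of the fit because so few counts lie in WT_TAC.

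Hist2h2ac had 31, 28 and 27 counts in Alox5ko_TAC, against 0, 1 and 0 in WT_TAC. The groups did not overlap, as for 12.3% of all genes tested, and 2 of the 3 WT_TAC libraries had no count, which allows up to 3 counts in each. The ratio of 86 summed counts to 1 was 84.6, with a counting interval of 14.8 to 3379. Its fitted log2 fold change was 5.98 (SE 0.808, edgeR adjusted p = 0.00124) and depends on the prior count in the same way.

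Hist2h2aa1 had 65, 67 and 76 counts in Alox5ko_TAC, against 9, 14 and 11 in WT_TAC. This gene was present in all 12 libraries, and its lowest Alox5ko_TAC library lay above the highest of any other group. The means were 3.15 ± 0.445 CPM in Alox5ko_TAC and 0.513 ± 0.0889 CPM in WT_TAC (SD, n = 3 each), a ratio of summed counts of 6.02 with a counting interval of 4.17 to 8.92. The log2 fold change was 2.60 (SE 0.295, edgeR adjusted p = 0.000108).

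Hist2h2aa2 had 1458, 1461 and 1117 counts in Alox5ko_TAC, against 1159, 1422 and 1102 in WT_TAC. The libraries of the groups overlapped, at means of 60.7 ± 6.75 CPM in Alox5ko_TAC and 55.7 ± 4.74 CPM in WT_TAC (SD, n = 3 each), and the log2 fold change was 0.12 (edgeR adjusted p = 0.784). The H2B gene Hist2h2be, on the plus strand next to Hist2h2ac, had 63, 41 and 40 counts in Alox5ko_TAC, against 26, 41 and 44 in WT_TAC, with overlapping groups and a log2 fold change of 0.36 (edgeR adjusted p = 0.752). The transcription starts of Hist2h2be and Hist2h2ac lie 238 bases apart and point away from each other, so the called Hist2h2ac and the uncalled Hist2h2be share the stretch between them.

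**Figure D2:**
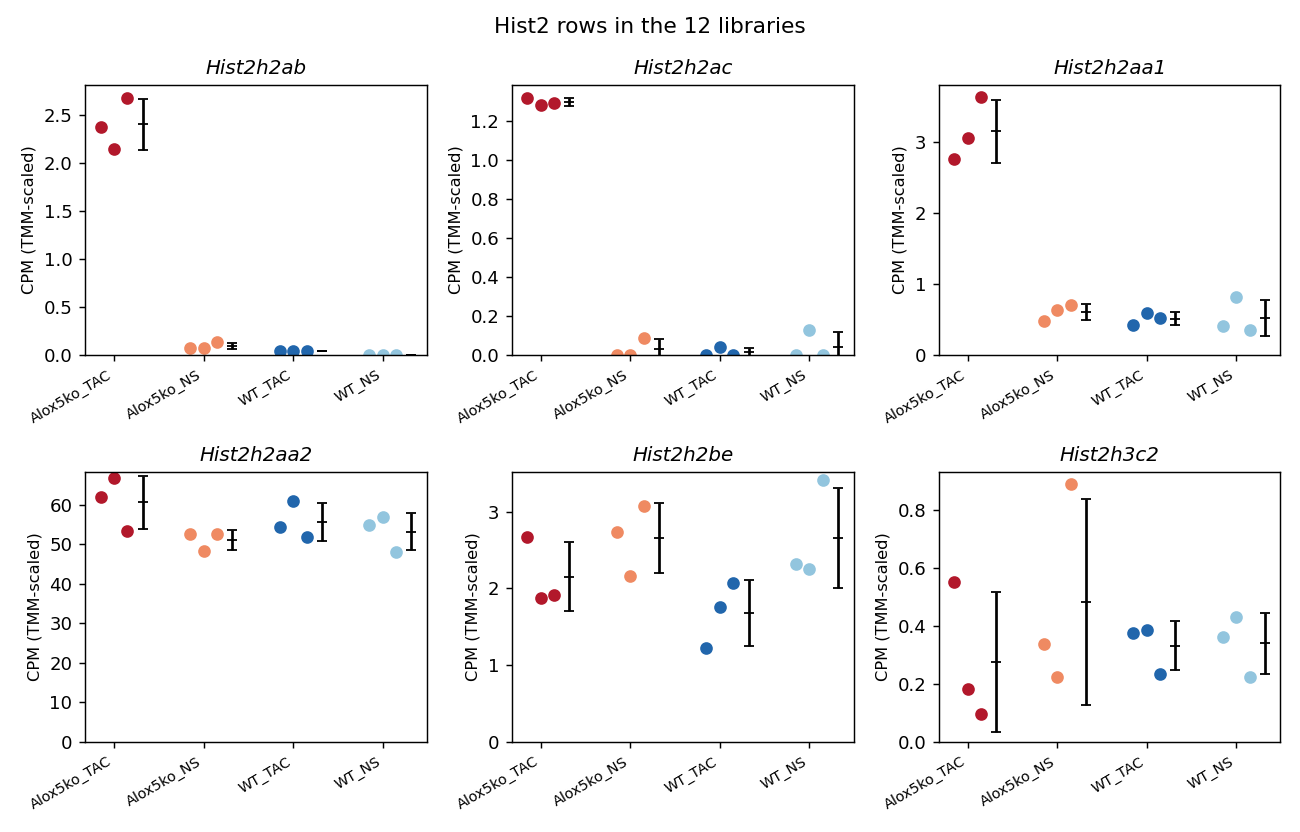
Levels of the 6 Hist2 rows with at least 10 counts in a library, as TMM-scaled CPM on axes that start at 0, with 1 point per library and the mean ± SD of 3 libraries beside them. Hist2h2ab, Hist2h2ac and Hist2h2aa1 are high in the 3 Alox5ko_TAC libraries, while Hist2h2aa2, Hist2h2be and Hist2h3c2 overlap between Alox5ko_TAC and WT_TAC.

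The TAC response within the knockout gave the same 3 calls, in a comparison that shares the Alox5ko_TAC libraries with the one above. Hist2h2ab, with 56, 47 and 56 counts in Alox5ko_TAC, had 2, 2 and 3 in Alox5ko_NS, a ratio of 26.7 with a counting interval of 12.7 to 67.5. Its log2 fold change was 4.62 (SE 0.393), and its edgeR adjusted p of 8.91e-06 was the smallest of the comparison, tied with the overlapping row Gm15444. Of all genes tested 1.34% were called here, and 0.733% were called higher. Hist2h2ac had 0, 0 and 2 counts in Alox5ko_NS, a ratio of 50.6 with a counting interval of 13.6 to 424 and a fitted log2 fold change of 5.35 (SE 0.718, edgeR adjusted p = 0.00112). For Hist2h2aa1 the Alox5ko_NS counts were 13, 17 and 16, so that Alox5ko_TAC was higher by 2.36 on the log2 scale (SE 0.281, edgeR adjusted p = 0.000272). In these 3 rows each Alox5ko_TAC library lay above each Alox5ko_NS library.

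Hist2h2aa2 did not pass the test here either, although its groups did not overlap, with 61.9, 66.8 and 53.4 CPM in Alox5ko_TAC and 52.6, 48.2 and 52.6 CPM in Alox5ko_NS. The log2 fold change was 0.25 (SE 0.0943, edgeR adjusted p = 0.222), and 18% of all genes tested had groups without overlap in this comparison. Hist2h2be gave a log2 value of -0.29 (edgeR adjusted p = 0.617), with 63, 41 and 40 counts in Alox5ko_TAC and 73, 58 and 69 in Alox5ko_NS.

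Without TAC, no histone row was called between Alox5ko_NS and WT_NS by edgeR, where 0.0386% of all genes tested were called, and DESeq2 called none either. An unadjusted p under 0.05 was given to 2 of the 23 rows and to 6.36% of all genes tested. One was Hist2h2ab, with 2, 2 and 3 counts in Alox5ko_NS against none in any WT_NS library, a level at which the limit of 3 counts that a count of 0 allows in each library cannot be told from the values seen. The other was H3f3b, with 45.0, 49.5 and 48.7 CPM in Alox5ko_NS, against 53.1, 59.4 and 56.6 CPM in WT_NS, a log2 value of -0.24 (SE 0.101, edgeR adjusted p = 0.726) with groups that did not overlap, as for 13.6% of all genes tested. Hist2h2aa1 had 13, 17 and 16 counts in Alox5ko_NS and 9, 19 and 8 in WT_NS, which overlap.

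In wild-type ventricles TAC gave no called histone row by edgeR, against 0.766% of all genes tested, and none by DESeq2. An unadjusted p under 0.05 was given to 6 of the 23 rows and to 11.9% of all genes tested, and none of the 3 H2A genes above passed the test. Hist2h2ab had 1, 1 and 1 counts in WT_TAC and none in WT_NS. Hist2h2ac had 0, 1 and 0 counts in WT_TAC and 0, 3 and 0 in WT_NS, and Hist2h2aa1 had 9, 14 and 11 in WT_TAC and 9, 19 and 8 in WT_NS. Hist2h2be had 26, 41 and 44 counts in WT_TAC and 51, 52 and 76 in WT_NS. These Hist2h2be libraries did not overlap between groups, as for 18.9% of all genes tested, at a log2 value of -0.66 (SE 0.243, edgeR adjusted p = 0.25).

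The difference between the TAC response of Alox5ko and that of WT was tested as an interaction, and no gene of the 15542 was called by edgeR (0% of genes tested), histone rows included. Unadjusted p-values under 0.05 went to 836 genes, among them 4 histone rows, and DESeq2 called 1 gene, which was no histone row. Hist2h2aa1 had an interaction of 2.41 on the log2 scale (SE 0.469, edgeR adjusted p = 0.509), and no gene had a lower adjusted p. For Hist2h2ac it was 6.63 (SE 1.95, edgeR adjusted p = 0.629) and for Hist2h2ab 1.39 (SE 2.47, edgeR adjusted p = 0.9997), with next to no counts in the WT groups behind both. Without the filter on low counts Hist2h2aa1 was called in the interaction, at 2.40 (edgeR adjusted p = 0.00278). A difference between the genotypes in the TAC response of these rows therefore did not pass the test under the filter.

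**Figure D3:**
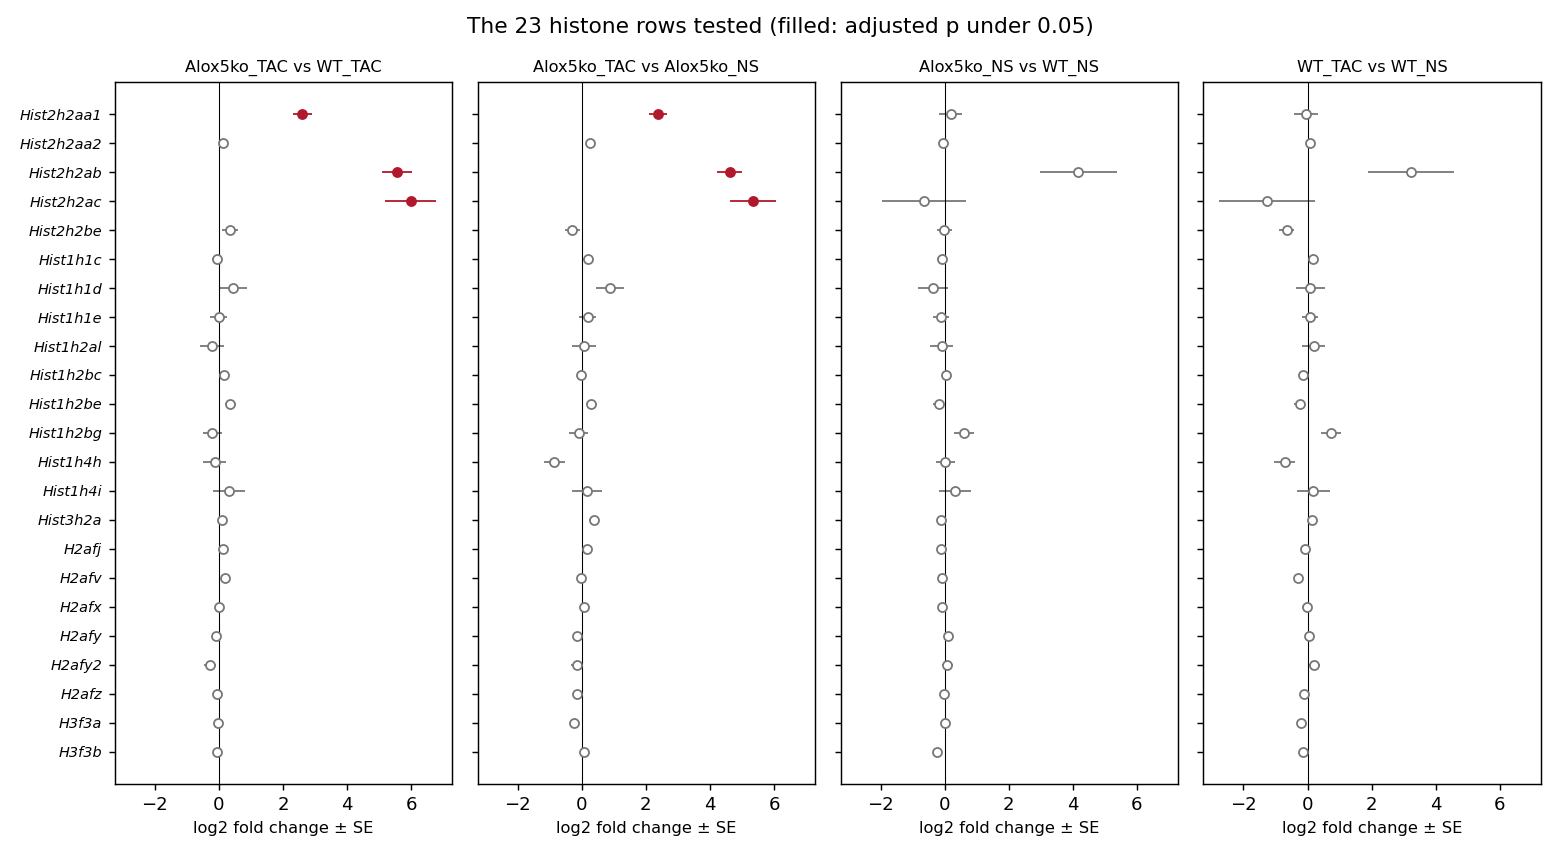
Log2 fold changes of the 23 tested histone rows in 4 comparisons, with bars for the SE and filled points for an adjusted p under 0.05. The filled points are Hist2h2aa1, Hist2h2ab and Hist2h2ac in both comparisons that hold Alox5ko_TAC, and the wide bars of Hist2h2ab and Hist2h2ac in the other panels stand for groups with at most 3 counts in a library.

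Because the 4 H2A genes share sequence, their counts were also summed. Hist2h2ab, Hist2h2ac and Hist2h2aa1 made up 9.44%, 8.86% and 12.5% of the summed counts of the 4 rows in Alox5ko_TAC, where the exact 95% intervals of the libraries ran from 7.51% to 14.4%. In Alox5ko_NS the 3 rows made up 1.06% to 1.74%, in WT_TAC 0.855% to 1.11% and in WT_NS 0.741% to 1.65%, and no interval reached that of an Alox5ko_TAC library. The 3 rows amounted to 6.38, 6.58 and 7.51 CPM (here scaled by the library total alone) in Alox5ko_TAC and to at most 0.983 CPM in any other library. All 4 rows together came to 67.6, 74.3 and 60.2 CPM in Alox5ko_TAC, 52.2, 48.0 and 50.6 CPM in Alox5ko_NS, 56.0, 62.0 and 52.1 CPM in WT_TAC and 57.0, 59.8 and 48.9 CPM in WT_NS. The 4-row sum thus overlapped between Alox5ko_TAC and WT_TAC and did not overlap between Alox5ko_TAC and Alox5ko_NS. Intervals cover counting error only. Hist2h2ab, Hist2h2ac and Hist2h2aa1 were grouped because they had been called higher in Alox5ko_TAC. Separation of their share follows from that choice and is no further support.

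**Figure D4:**
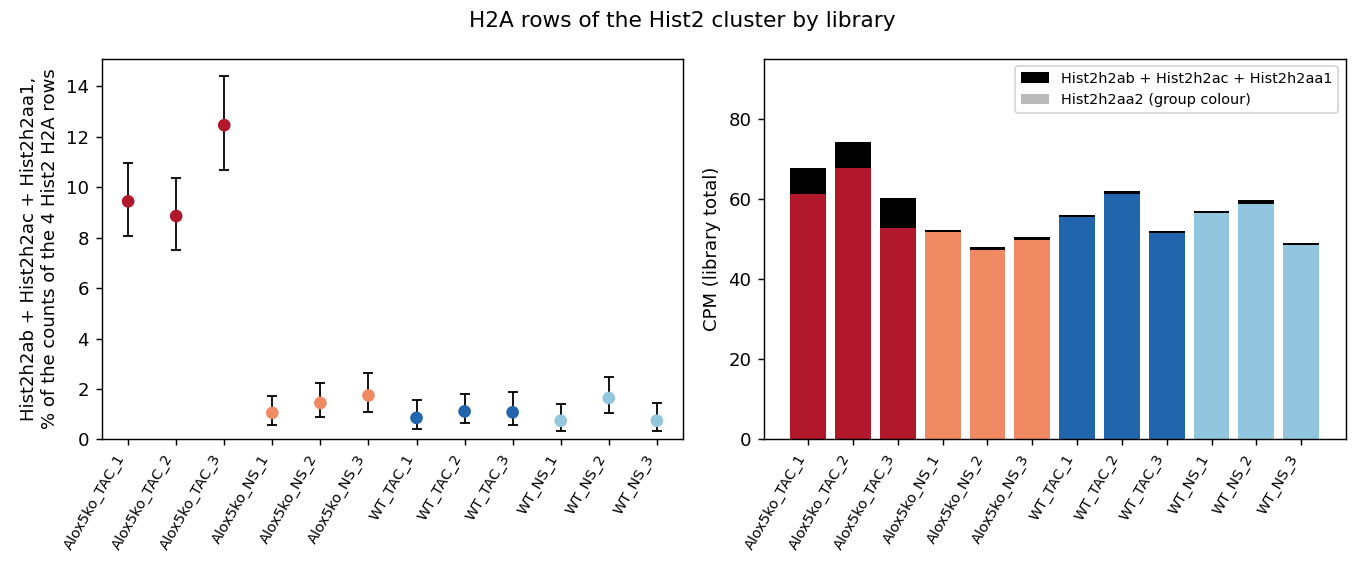
Left, the share of Hist2h2ab, Hist2h2ac and Hist2h2aa1 in the summed counts of the 4 Hist2 H2A rows in each library, with exact 95% intervals. Right, the summed level in CPM by library total, with Hist2h2aa2 in the group colour and the other 3 rows in black. The share lies between 8.86% and 12.5% in Alox5ko_TAC and at or under 1.74% elsewhere, while the bars themselves overlap between Alox5ko_TAC and WT_TAC. The rows in black were grouped because they had been called, so the separation of the share follows from that choice.

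Other annotated rows cover parts of the same genes and were called together with them, all 5 in both comparisons that hold Alox5ko_TAC. Gm15444, which lies on the strand opposite to Hist2h2ab, had 52, 46 and 56 counts in Alox5ko_TAC, against 0, 0 and 1 in WT_TAC and none in Alox5ko_NS (against WT_TAC, edgeR adjusted p = 1.83e-05). Gm44492, a row of 141 bases opposite to Hist2h2ac, had 30, 28 and 27 counts in Alox5ko_TAC, against 1, 3 and 0 in WT_TAC (edgeR adjusted p = 0.01144). Outside Alox5ko_TAC both rows stayed below the filter's cut in every library. Like Hist2h2ab and Hist2h2ac, Gm15444 and Gm44492 were thus tested only because they were high there. In Alox5ko_TAC each opposite-strand row had nearly the count of the histone row, 96.9% of it for Gm15444 and 98.8% for Gm44492. In the other groups, at few counts, this did not hold throughout. Gm44492 summed to 6 against 2 of Hist2h2ac in Alox5ko_NS, 4 against 1 in WT_TAC and 3 against 3 in WT_NS. Gm15444 summed to 0 against 7 of Hist2h2ab in Alox5ko_NS, 1 against 3 in WT_TAC and 1 against 0 in WT_NS. At high counts, Gm20632, outside these 5 rows and opposite to Hist2h2aa2, had nearly the Hist2h2aa2 count in every group. It was 100.8% in Alox5ko_TAC, 101.1% in Alox5ko_NS, 101.2% in WT_TAC and 101.1% in WT_NS. The counts do not show from which strand the RNA came, although the labels describe directional libraries.

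AC125099.1, a row of 138 bases opposite to the coding part of Hist2h2aa1, held 96.6% of the Hist2h2aa1 count in Alox5ko_TAC, against 78.3% in Alox5ko_NS, 79.4% in WT_TAC and 69.4% in WT_NS. The matching row inside Hist2h2aa2, AC125099.2, held 72.1% of the Hist2h2aa2 count in Alox5ko_TAC, 72.5% in Alox5ko_NS, 72.0% in WT_TAC and 72.0% in WT_NS. By library the AC125099.1 and Hist2h2aa1 counts were 62 and 65, 64 and 67, and 75 and 76 in Alox5ko_TAC, against 6 and 9, 11 and 19, and 8 and 8 in WT_NS, so single libraries of the groups overlap in this proportion, and the difference was not tested. Gm20633 and Gm20634, longer rows that overlap Hist2h2aa1, were called as well against WT_TAC, at log2 fold changes of 1.63 (SE 0.233, edgeR adjusted p = 0.00248) and 1.34 (SE 0.241, edgeR adjusted p = 0.0274). Rows that overlap are not independent calls, since the same reads can be counted in each.

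The other genes of the Hist2 cluster, which spans 50.3 kb, had few counts. The H3 gene Hist2h3c2 had 13, 4 and 2 counts in Alox5ko_TAC, 9, 6 and 20 in Alox5ko_NS, 8, 9 and 5 in WT_TAC and 8, 10 and 5 in WT_NS, with groups that overlap. Its neighbour Hist2h3c1, another H3 gene, had 3, 2 and 3 counts in Alox5ko_TAC, and the H4 gene Hist2h4 had 7, 4 and 5, and both stayed under 10 counts in all 12 libraries. Hist2h3b, an H3 gene, and Hist2h2bb, an H2B gene, had 2 counts and 1 count in all. None of these 5 rows passed the filter.

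As a share of all histone counts the Hist2 cluster made up 18.3%, 21.4% and 19.0% in Alox5ko_TAC, 16.8%, 15.4% and 16.7% in Alox5ko_NS, 15.8%, 18.1% and 16.7% in WT_TAC and 16.8%, 16.3% and 15.2% in WT_NS. Each Alox5ko_TAC library was above each library of the other groups, the nearest being the second WT_TAC library. The means were 19.55 ± 1.65% in Alox5ko_TAC, 16.3 ± 0.788% in Alox5ko_NS, 16.85 ± 1.17% in WT_TAC and 16.1 ± 0.805% in WT_NS (SD, n = 3 each), and 3 libraries against 3 cannot go below p = 0.1 in an exact two-sided permutation test. This separation rested on the called rows and on the measure. Without Hist2h2ab, Hist2h2ac and Hist2h2aa1, left out once the data had been seen, the share was 16.9%, 19.9% and 17.1% in Alox5ko_TAC, and the second WT_TAC library, at 17.9%, lay above 2 of these. By RPKM the first Alox5ko_TAC library, at 41.4%, lay below the second WT_TAC library, at 42.0%. Without the variant rows the first Alox5ko_TAC library, at 33.7%, lay below libraries of all other groups. The Hist2 rows summed to 70.15 ± 7.10 CPM in Alox5ko_TAC, 53.7 ± 2.65 in Alox5ko_NS, 59.2 ± 5.03 in WT_TAC and 58.7 ± 5.32 CPM in WT_NS, scaled by library total (SD, n = 3 each). The other histone rows summed to 289 ± 26.7 CPM in Alox5ko_TAC, 277 ± 2.39 in Alox5ko_NS, 292 ± 18.1 in WT_TAC and 305 ± 15.4 CPM in WT_NS on the same scale (SD, n = 3 each), with overlap between Alox5ko_TAC and each other group.

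Outside the Hist2 cluster 18 rows were tested, and none was called by edgeR in any of the 4 comparisons. Of all genes tested only 0.0386% to 1.34% were called in these comparisons, so no call among 18 rows does not set them apart. Their median log2 fold changes were -0.02 in Alox5ko_TAC against WT_TAC, 0.06 in Alox5ko_TAC against Alox5ko_NS, -0.08 in Alox5ko_NS against WT_NS and 0.01 in WT_TAC against WT_NS, beside medians of all genes that rounded to -0.01, 0.00, 0.00 and 0.00. An unadjusted p under 0.05 was given to 1 of the 18 rows in Alox5ko_TAC against WT_TAC (8.49% of all genes), 3 in Alox5ko_TAC against Alox5ko_NS (14.5% of all genes), 1 in Alox5ko_NS against WT_NS (6.36% of all genes) and 4 in WT_TAC against WT_NS (11.9% of all genes). DESeq2 called none of the 18 rows.

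The linker histone gene Hist1h1c had 95.0, 58.6 and 59.3 CPM in Alox5ko_TAC, 58.9, 65.2 and 61.5 in Alox5ko_NS, 78.2, 75.3 and 66.5 in WT_TAC and 61.8, 72.9 and 61.2 CPM in WT_NS. The first Alox5ko_TAC library stood above all others, and the other 2 of that group lay at the lower end of the range. Hist1h1e, another linker histone gene, had 62, 31 and 35 counts in Alox5ko_TAC and 48, 47 and 32 in WT_TAC, and Hist1h1c and Hist1h1e shared the high first library of Alox5ko_TAC.

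Among core histone genes of Hist1, Hist1h2bc had 26.6, 21.2 and 24.8 CPM in Alox5ko_TAC, 26.2, 21.7 and 26.02 in Alox5ko_NS, 21.04, 22.4 and 20.9 in WT_TAC and 23.9, 25.0 and 22.4 CPM in WT_NS, with overlap between Alox5ko_TAC and each other group. Hist1h2bg, also of the H2B type, had 23, 36 and 21 counts in Alox5ko_TAC, 41, 26 and 31 in Alox5ko_NS, 35, 31 and 26 in WT_TAC and 12, 26 and 19 in WT_NS. The H4 gene Hist1h4h had 13, 18 and 14 counts in Alox5ko_TAC, 29, 29 and 35 in Alox5ko_NS, 19, 19 and 11 in WT_TAC and 30, 35 and 17 in WT_NS. Its levels were lower in all Alox5ko_TAC libraries than in all Alox5ko_NS libraries, at a log2 value of -0.85 (SE 0.327, edgeR adjusted p = 0.223), and overlapped between WT_TAC and WT_NS at -0.71 (edgeR adjusted p = 0.399). Hist1h4i, of the same type, had 7 to 16 counts in Alox5ko_TAC, 7 to 22 in Alox5ko_NS, 6 to 14 in WT_TAC and 6 to 13 in WT_NS. Hist1h2al, the only Hist1h row of the H2A type that passed the filter, is annotated as a processed pseudogene. It lies at chr13:51202688-51203065, apart from the other Hist1h rows on that chromosome. Hist1h2al had 10, 15 and 9 counts in Alox5ko_TAC and 16, 11 and 12 in WT_TAC, with groups that overlap. The coding sequences of 13 Hist1h and Hist3h H2A rows matched Hist2h2aa2 at 85.6% to 91.8%, with unbroken matches of 41 to 120 bases.

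Hist3h2a, the H2A gene of the Hist3 cluster on chromosome 11, had 8.62, 8.41 and 9.28 CPM in Alox5ko_TAC, 6.35, 6.53 and 7.43 in Alox5ko_NS, 6.998, 9.43 and 7.94 in WT_TAC and 6.95, 8.47 and 6.55 CPM in WT_NS. The Alox5ko groups did not overlap, at a log2 value of 0.37 (SE 0.135), and the test was not passed (edgeR adjusted p = 0.19). Hist3h2ba, an H2B gene of the same cluster, had 12 counts in all.

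No variant gene was called in any comparison, where at most 1.34% of all genes tested were called. H2afv had 20.9, 23.4 and 21.4 CPM in Alox5ko_TAC, 21.9, 23.1 and 22.4 in Alox5ko_NS, 17.8, 19.3 and 20.4 in WT_TAC and 23.4, 22.99 and 24.96 CPM in WT_NS. WT_TAC was the lowest group and did not overlap with the others, at log2 values of 0.19 for Alox5ko_TAC against WT_TAC (SE 0.0896, edgeR adjusted p = 0.576) and -0.31 for WT_TAC against WT_NS (SE 0.0892, edgeR adjusted p = 0.122). H3f3a, which codes for histone H3.3 like H3f3b, had 22.2, 22.7 and 21.05 CPM in Alox5ko_TAC and 25.8, 23.8 and 28.3 CPM in Alox5ko_NS, without overlap, at a log2 value of -0.24 (SE 0.0901, edgeR adjusted p = 0.22). In wild type H3f3a had 22.4, 21.7 and 23.7 CPM in WT_TAC and 24.7, 25.8 and 27.2 CPM in WT_NS, again without overlap, at -0.20 (edgeR adjusted p = 0.391). H3f3b averaged 49.7 ± 6.33 CPM in Alox5ko_TAC and 51.4 ± 6.79 CPM in WT_TAC, and H2afj, another H2A variant gene, 17.4 ± 1.91 CPM in Alox5ko_TAC and 15.96 ± 2.50 CPM in WT_TAC (SD, n = 3 each), with overlap in both.

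Genes that act with histone messenger RNA or lie near the Hist2 cluster were followed as lists. At most 1.34% of all genes tested were called in any comparison, so the lack of a call does not set such short lists apart. Of 33 tested genes of S phase and DNA replication none was called in any comparison, at medians of -0.08 for Alox5ko_TAC against WT_TAC and 0.05 for Alox5ko_TAC against Alox5ko_NS. Their median was -0.26 for Alox5ko_NS against WT_NS, where 10 of the 33 were positive. It was -0.08 for WT_TAC against WT_NS and 0.14 for the interaction. Of 29 tested genes of histone transcription and end processing none was called. Of 28 tested neighbours of the Hist2 cluster none was called, at medians of 0.04 for Alox5ko_TAC against WT_TAC and 0.01 for Alox5ko_TAC against Alox5ko_NS. Of 31 tested histone chaperone genes 1 was called, in Alox5ko_TAC against Alox5ko_NS, where 1.34% of all genes tested were called. Cabin1, which takes part in the deposition of H3.3, had 22.2, 22.1 and 19.9 CPM in Alox5ko_TAC, against 16.1, 16.9 and 12.9 CPM in Alox5ko_NS, a log2 fold change of 0.48 (SE 0.116, edgeR adjusted p = 0.0421). None of 3 tested histone variant and linker genes outside the prefixes was called.

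Libraries held 20889431 to 27311196 counts. Alox5, the gene named in the genotype, had 1.36, 1.14 and 1.10 CPM in Alox5ko_TAC, against 13.4, 9.56 and 12.2 CPM in WT_TAC, so the knockout libraries matched their label. The 6 defining cardiomyocyte markers summed to 164100 to 173400 CPM in Alox5ko_TAC, 138000 to 166100 in Alox5ko_NS, 163400 to 168700 in WT_TAC and 159700 to 171800 CPM in WT_NS. Marker lists of 9 other cell types gave no called gene in any comparison, where at most 1.34% of all genes tested were called. Only 1 of 4 genes was tested for each of neutrophils, T cells and B cells, and 3 of 5 for megakaryocytes and platelets. In bulk RNA fewer cells of a type and less RNA per cell cannot be told apart. Summed fibroblast markers, 5 genes with none at 0, were 257 to 309 CPM in Alox5ko_TAC, 191 to 222 in Alox5ko_NS, 277 to 492 in WT_TAC and 251 to 299 CPM in WT_NS, and thus higher in Alox5ko_TAC than in Alox5ko_NS in every library, as the 3 called H2A genes were. Summed markers of endothelium (4 genes) and macrophages (5 genes) were likewise higher in every Alox5ko_TAC library, at 368 to 415 CPM and 47.6 to 60.3 CPM, than in Alox5ko_NS, at 273 to 362 CPM and 44.7 to 47.0 CPM. Neutrophil markers went the other way, at 1.37 to 2.22 CPM in Alox5ko_TAC and 3.16 to 4.20 CPM in Alox5ko_NS. The remaining lists overlapped between these groups. In this comparison 18% of all single genes tested had groups without overlap. Against WT_TAC the endothelial and macrophage lists did not separate the groups: endothelium was 404 to 490 CPM and macrophages 41.2 to 60.9 CPM in WT_TAC, overlapping with Alox5ko_TAC. All 5 fibroblast markers had a negative log2 value in Alox5ko_TAC against WT_TAC (median -0.40), opposite in sign to the 3 called H2A genes. All 5 macrophage markers had a positive value there (median 0.165), the same sign as those genes. Of the endothelial markers 1 of 4 was positive (median -0.09), and of smooth muscle and pericyte markers 0 of 5 (median -0.34). In WT_NS endothelium was 397 to 423 CPM and macrophages 52.4 to 57.5 CPM. The part of these cell types in the result was not tested.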

How the data were processed

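Polyadenylated RNA of 12 left ventricle libraries was sequenced as 150-bp read pairs, per the labels' protocols. The authors deposited raw counts per gene symbol and RPKM values, which were equal within 0.1% to values recomputed from the counts and the deposited length (all 336840). The submitters' processing notes name HISAT2, DESeq2 and the builds GRCh38 and mm10; the counting program, annotation, strand setting and treatment of multiply mapped reads are not given in the sources used here. Of the 76 histone rows 55 had the same start and end in GENCODE M21 (GRCm38, which is mm10), which gave positions and transcripts; promoters are from RefSeq (GRCm38.p6).

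Tests on the counts used R 4.3.3 with limma 3.58.1 and edgeR 4.0.16: filterByExpr (minimum count 10, minimum total 15), TMM, 1 coefficient per group over all 12 libraries, robust quasi-likelihood F tests, Benjamini-Hochberg adjustment over 15542 genes, called at 0.05. SE is the log2 fold change divided by the square root of F. DESeq2 1.42.0 was an alternative, with other scaling, no filter, only the libraries compared, a replicate block, each library left out and overlapping rows left out. Shares and intervals were computed in Python 3.11.15 with SciPy 1.17.1. The fit was tested on simulated data whose changed genes all had higher mean counts than Hist2h2ab, Hist2h2ac and Hist2h2aa1. It says nothing about rows of so few counts. The common biological coefficient of variation was 0.107. Libraries of a group differed by more than sampling noise (mean chi-square a gene 5.24 to 30.9), so none was counted as a copy.

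Members, lists and tests were chosen with earlier results of these data known. Named were Hist2h rows with at least 10 counts in a library, other called histone rows, the 2 highest rows by mean RPKM of each class, called rows that overlap a Hist2h row, up to 3 called genes of each list, and Alox5; other rows named were chosen after their values were seen. A date stands in place of the symbol in 26 rows of the table, and these are left unnamed.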

Additional observations from a re-analysis of the deposited data

How the results depend on the processing

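In Alox5ko_TAC against WT_TAC the same 3 rows, Hist2h2ab, Hist2h2ac and Hist2h2aa1, were called under all 12 alternatives, each library left out included. Hist2h2ab and Hist2h2ac passed the filter through Alox5ko_TAC alone. Alternatives with the filter therefore tested these 2 rows only because they were high there, and their repeated calls are not separate support. In Alox5ko_TAC against Alox5ko_NS the 3 rows were called under all alternatives but DESeq2, which called 1, Hist2h2aa1, and gave the other 2 no adjusted p. Log2 fold changes over these alternatives ran from 5.48 to 5.73 for Hist2h2ab, 5.55 to 7.90 for Hist2h2ac and 2.48 to 2.74 for Hist2h2aa1 against WT_TAC, with adjusted p up to 0.000194, 0.0208 and 0.00185. No alternative gave a called histone row in Alox5ko_NS against WT_NS or in WT_TAC against WT_NS. For the interaction 1 row, Hist2h2aa1, was called without the filter on low counts (83 genes in all) and 0 under the others; the cause was not tested. The interaction uses all 12 libraries, so a fit of only the libraries compared gave no separate value. Of the values of single named rows 1099 were labelled as unchanged and 1 newly passed the threshold. The label did not compare direction for rows uncalled in the main fit. A called row without an adjusted p, as under DESeq2, also counted as unchanged. All genes called in Alox5ko_TAC against WT_TAC numbered 17, and 9 to 252 under the alternatives, with 55 by DESeq2, 39 with only the libraries compared and 252 without the filter. In Alox5ko_TAC against Alox5ko_NS the number was 209, with 401 by DESeq2, 756 without the filter and 60 to 379 with a library left out.

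Same-numbered libraries did not deviate together (median correlation 0.0248, with 0 of 18 pairs over 0.1), so the numbers do not pair the samples. With a replicate block 3 histone rows were called in each comparison that holds Alox5ko_TAC and 0 in the others, of 21 and 170 genes called.

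The Hist2 share of histone measure was 44.1% in Alox5ko_TAC, 38.45% in Alox5ko_NS, 39.98% in WT_TAC and 38.49% in WT_NS by RPKM, and, without the variant rows, 38.24% in Alox5ko_TAC, 34.8% in Alox5ko_NS, 34.13% in WT_TAC and 34.82% in WT_NS. Without Hist2h2ab, Hist2h2ac and Hist2h2aa1, an alternative added after seeing the data, the share of counts was 17.97% in Alox5ko_TAC, 16.08% in Alox5ko_NS, 16.71% in WT_TAC and 15.98% in WT_NS. Under each of these 3 alternatives at least 1 Alox5ko_TAC library lay below a library of another group, unlike in the share of all histone counts. With a library left out that share was 18.6% to 20.2% in Alox5ko_TAC, 16.02% to 16.7% in Alox5ko_NS, 16.2% to 17.4% in WT_TAC and 15.8% to 16.6% in WT_NS. Depth limits the rows of few counts: Hist2h2ab and Hist2h2ac had 0 to 3 counts a library outside Alox5ko_TAC, so their fold changes have wide intervals and their comparisons between other groups were not resolvable.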
